A study of Mus musculus with 6 samples.

Results

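The 33 genes described here encode the proteins that bring glucose into the heart, carry it through glycolysis to lactate, and store it as or release it from glycogen. They were chosen by name from the deposited table of 20121 genes, with isoform pairs such as Hk1 and Hk2 kept together, and all 33 were found. Whole hearts of 6 mouse pups were profiled by RNA sequencing at postnatal day 14 (P14), on a mixed ICR and C57BL/6 background. The 3 mutant pups carried Myh6-Cre, which drives Cre recombinase in heart muscle cells, together with TRalphaAMI, a knock-in allele that makes a dominant negative thyroid hormone receptor alpha once Cre has acted. The 3 control pups were littermates with the TRalphaAMI allele and no Cre, so all 6 animals carried the allele, and no group carried Myh6-Cre alone. Only cells in which Myh6-Cre has acted express the altered receptor, whereas the RNA came from all cells of the heart.

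Glucose enters a muscle cell through transporters of the SLC2A (GLUT) family and is trapped as glucose 6-phosphate by a hexokinase. Glycolysis then splits it into pyruvate, which lactate dehydrogenase exchanges with lactate, while a side branch builds glycogen that phosphorylase later breaks down again. Many of these steps have isoforms that differ between muscle and other tissues or between the fetal and the adult heart, and thyroid hormone is a well-known regulator of Slc2a4 in heart and skeletal muscle. The newborn heart shifts from a glycolytic fuel supply toward fatty acid oxidation in the weeks after birth.

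Libraries held 45944049 to 48359735 counts in the mutant hearts and 43314706 to 62095277 in the control hearts. Genes of the mitochondrial genome took 17.8% ± 1.01 of the counts in mutant hearts and 24.0% ± 1.41 in control hearts (SD, n = 3 each), a difference that bears on how libraries are scaled. Thra, the gene of the altered receptor, was at 124.6, 142.2 and 143.0 CPM (counts scaled to a common library size) in mutant hearts, against 66.8, 81.6 and 81.7 CPM in control hearts, and counts per gene do not separate the altered from the normal transcript. Marker calls are from the edgeR test given in the next paragraph, by which 18.1% of all genes tested were higher and 19.5% lower. Of 8 heart muscle markers, 2 were lower (Actc1 and Tcap), or 25.0%. The 8 markers summed to 28480 to 29510 CPM in mutant hearts and 29580 to 33520 CPM in control hearts. Endothelial markers were lower for 6 of 8 genes, with a summed level of 1349 to 1454 CPM in mutant hearts and 1609 to 1725 CPM in control hearts. Macrophage markers were lower for 6 of 7, at 88.8 to 94.0 CPM in mutant hearts and 133.3 to 146.3 CPM in control hearts. Fibroblast markers were higher for 3 of 7, at 2782 to 3089 CPM in mutant hearts and 2470 to 2702 CPM in control hearts. Red blood cell markers, at 91.4 to 243.2 CPM in mutant hearts and 157.9 to 245.2 CPM in control hearts, overlapped between the groups. Smooth muscle markers were higher for 1 of 4 (Cnn1), at 266 to 328.3 CPM in mutant hearts and 204.6 to 267.6 CPM in control hearts, and glia and neuron markers were at 12.8 to 17.4 CPM in mutant hearts and 13.0 to 13.7 CPM in control hearts. Of 5 tested skeletal muscle markers, Tnni2 and Ckm were lower, and the list, whose Ckm heart muscle also expresses, summed to 826 to 915.7 CPM in mutant hearts and 1255 to 1459 CPM in control hearts. The skeletal muscle myosins and Actn3 reached at most 0.434 CPM in any heart, and the adipocyte gene Plin1 at most 0.0552 CPM. In a bulk sample, fewer cells of a type and less RNA per cell cannot be told apart, and the part of these shifts in the results below was not tested.

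Of the 33 genes, 17 were lower in mutant hearts, 5 were higher and 11 did not pass the test (edgeR quasi-likelihood test, Benjamini-Hochberg adjusted p under 0.05). Calls were common across the whole table: 37.5% of the 14877 genes tested were called, 18.1% higher and 19.5% lower. Among the 33 genes 66.7% were called, 15.2% higher and 51.5% lower. Their median log2 fold change, mutant over control, was -0.31 with a range of -2.18 to 2.53, against a median of -0.001 over all genes tested. The lower calls covered Slc2a4, Hk2, Pfkm, Pfkfb1, Pfkfb2, Aldoa, Gapdh, Pgk1, Pgam2, Eno3, Pkm, Ldhb, Pygm, Pygb, Phka1, Phkg1 and Gbe1. The higher calls were Hk1, Aldoc, Eno1, Gyg and Ppp1r3c. In 25 of the 33 genes (75.8%) the hearts of the groups did not overlap in CPM, against 49.8% of all genes tested. Changes of at least 1.5-fold were called for 8 of the 33 (24.2%), against 16.3% of all genes tested, namely Slc2a4, Hk2, Pfkfb1, Pfkfb2, Aldoc, Eno3, Pygm and Phkg1.

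The calls of several smaller changes differed when the deposited RPKM values were tested in place of the counts, a setting that alters the scaling and the test together. RLE, another scaling of the counts, left all 33 genes on the same side of the threshold. The RPKM values carry no correction for library composition. On log2(RPKM + 0.1) the median of all genes moved to a log2 fold change of 0.26 and that of the 33 genes to -0.03. The gap between the medians was -0.29 there and -0.19 on log2(RPKM + 1), against -0.31 with TMM scaling. On log2(RPKM + 0.1), limma called 9 of the 33 higher and 10 lower. Over all genes 85.8% of its calls were higher, against 48.1% with TMM. Pfkfb1, Gapdh, Pgam2, Ldhb, Pygb, Phka1 and Gbe1 were no longer called lower on that scale, and Gpi1, Pfkp, Tpi1 and Pgam1 were called higher. In all 13 other settings tried, 14 of the 33 kept their call, 10 of them lower (Slc2a4, Hk2, Pfkm, Pfkfb2, Aldoa, Pgk1, Eno3, Pkm, Pygm and Phkg1) and 4 higher (Hk1, Aldoc, Gyg and Ppp1r3c).

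**Figure D1:**
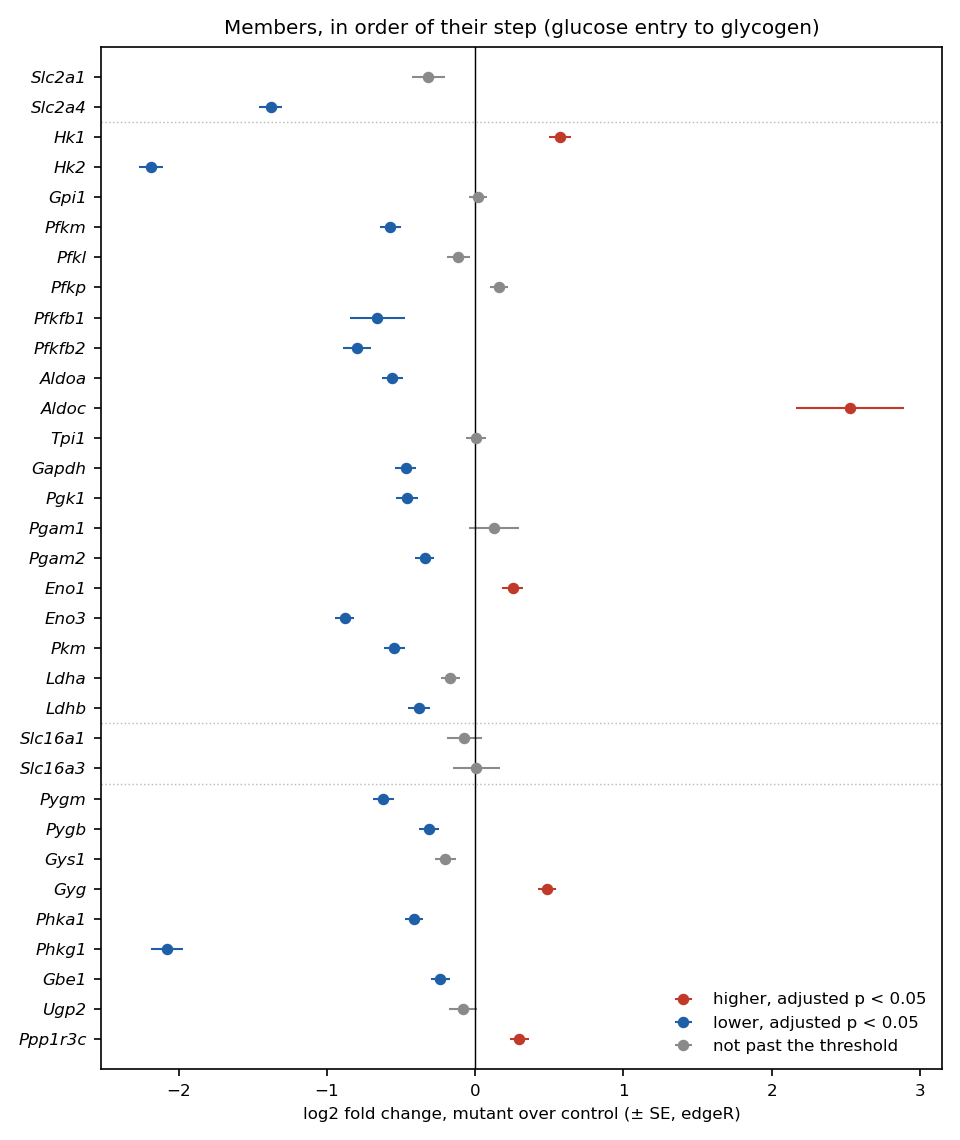
Log2 fold change, mutant over control hearts, of each of the 33 genes in the order of their step from glucose entry to glycogen; points are edgeR estimates, bars their SE, and colour marks the call. Hk2 and Phkg1 lie furthest to the left, below -2, and Aldoc furthest to the right, at 2.53.

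**Figure D2:**
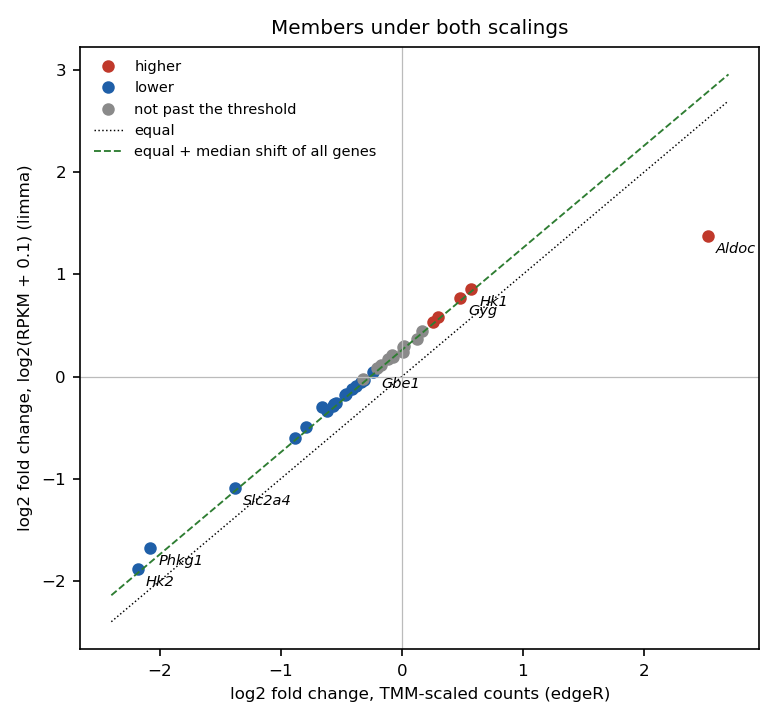
Log2 fold change, mutant over control, of the same genes on TMM-scaled counts (x axis, edgeR) and on log2(RPKM + 0.1) (y axis, limma). The genes lie above the line of equal values, except Aldoc, which has a low RPKM.

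The transcript of the insulin-responsive transporter was lower in mutant hearts, and that of the ubiquitous one did not pass the test. Slc2a4 (ENSMUSG00000018566, chr11:69942539-69948188 in mm10, minus strand) encodes GLUT4, the transporter that moves to the cell surface in response to insulin. It stood at 89.7, 99.2 and 105.8 CPM in mutant hearts, against 243.8, 252.0 and 271.0 CPM in control hearts. No mutant heart came near the lowest control heart, and the log2 fold change was -1.38 ± 0.08 (SE, edgeR adjusted p = 1.66e-06), 2.60-fold lower. Slc2a1, encoding GLUT1, a transporter active in many cell types and in the fetal heart, was at 6.28, 5.57 and 5.43 CPM in mutant hearts and 6.30, 7.76 and 7.40 CPM in control hearts. The groups just failed to touch, and its log2 fold change of -0.32 ± 0.11 had an adjusted p of 0.0501. Per length, Slc2a4 was the more abundant of the pair in both groups, at 28.1 ± 2.32 in mutant hearts and 73.1 ± 3.99 in control hearts (TMM-scaled RPKM, SD, n = 3 each), and Slc2a1 was at 1.63 ± 0.128 in mutant hearts and 2.03 ± 0.216 in control hearts. The lactate and pyruvate carriers among the 33 genes showed no call. Their log2 values were -0.07 for Slc16a1, or MCT1 (adjusted p = 0.666), and 0.01 for Slc16a3, or MCT4 (adjusted p = 0.976). Slc16a3 was low, on average 2.43 CPM in mutant hearts and 2.40 CPM in control hearts. Slc16a7, or MCT2, a carrier outside the 33, was higher (log2 1.09, edgeR adjusted p = 0.00202). Slc16a1 depends on 1 library, since without mutant heart 1, at 354.2 CPM, its log2 fold change was -0.24 (adjusted p = 0.0295).

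The hexokinases moved in opposite directions, and the main isoform by transcript level differed between the groups. Hk2 (ENSMUSG00000000628, chr6:82725025-82774454, minus strand), the insulin-regulated isoform of muscle and fat, was at 49.3, 50.9 and 55.9 CPM in mutant hearts, against 229.9, 257.8 and 221.0 CPM in control hearts. Every mutant heart lay far below every control heart. Its log2 fold change of -2.18 ± 0.08 (adjusted p = 1.92e-07), 4.54-fold lower, was the lowest of the 33. Hk1 (ENSMUSG00000037012, chr10:62268855-62379908, minus strand), the isoform of brain and many other tissues and of the early heart, was at 272.1, 272.4 and 274.9 CPM in mutant hearts and 172.9, 204.5 and 173.4 CPM in control hearts. The groups did not overlap here either, and Hk1 was 1.49-fold higher (log2 0.57 ± 0.07, adjusted p = 2.83e-04). Per length, Hk1 was at 31.8 ± 0.181 in mutant hearts and 21.4 ± 2.11 in control hearts, and Hk2 at 8.66 ± 0.569 in mutant hearts and 39.4 ± 3.19 in control hearts (TMM-scaled RPKM). Hk1 thus made up 79.4%, 78.9% and 77.5% of the transcripts of the pair in the mutant hearts, against 34.5%, 35.7% and 35.4% in the control hearts. The summed level of the pair was lower, 40.5 ± 0.748 in mutant hearts and 60.8 ± 5.26 in control hearts.

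The promoter windows of this pair are shown because its members moved apart most among the pairs of abundant genes. Each window runs from 250 bases before to 50 after an annotated start, from RefSeq on GRCm38.p6, the assembly that mm10 names, 5′ to 3′ on the strand of the gene. Capitals mark ACGTG, a motif bound by basic helix-loop-helix factors such as HIF, or AGGTCA, the half-site of nuclear receptors that include thyroid hormone receptors, in either orientation. Hk2 has 1 window, chr6:82774405-82774704 (minus strand), and Hk1 has 2, the upstream one at chr10:62379859-62380158 and the downstream one at chr10:62340372-62340671 (minus strand).
Hk2: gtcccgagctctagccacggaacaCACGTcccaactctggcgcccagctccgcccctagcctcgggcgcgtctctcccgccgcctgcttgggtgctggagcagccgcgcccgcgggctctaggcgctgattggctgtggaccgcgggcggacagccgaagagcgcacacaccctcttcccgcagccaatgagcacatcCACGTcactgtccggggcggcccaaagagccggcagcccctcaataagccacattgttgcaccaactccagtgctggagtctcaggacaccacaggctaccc
Hk1 upstream: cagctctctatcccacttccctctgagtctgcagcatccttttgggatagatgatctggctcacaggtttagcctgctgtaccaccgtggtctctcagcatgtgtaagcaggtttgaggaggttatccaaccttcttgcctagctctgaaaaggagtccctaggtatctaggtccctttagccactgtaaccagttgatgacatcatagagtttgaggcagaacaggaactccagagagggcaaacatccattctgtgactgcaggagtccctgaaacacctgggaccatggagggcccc
Hk1 downstream: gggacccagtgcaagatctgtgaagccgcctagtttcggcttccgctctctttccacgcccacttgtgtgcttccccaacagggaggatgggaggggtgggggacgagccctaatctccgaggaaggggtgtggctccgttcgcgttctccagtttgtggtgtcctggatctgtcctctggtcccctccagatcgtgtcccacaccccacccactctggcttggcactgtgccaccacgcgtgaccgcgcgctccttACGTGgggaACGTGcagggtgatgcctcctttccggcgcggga
The upstream Hk1 window held no copy of either motif, while the Hk2 window and the downstream Hk1 window each held 2 copies of ACGTG.

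**Figure D3:**
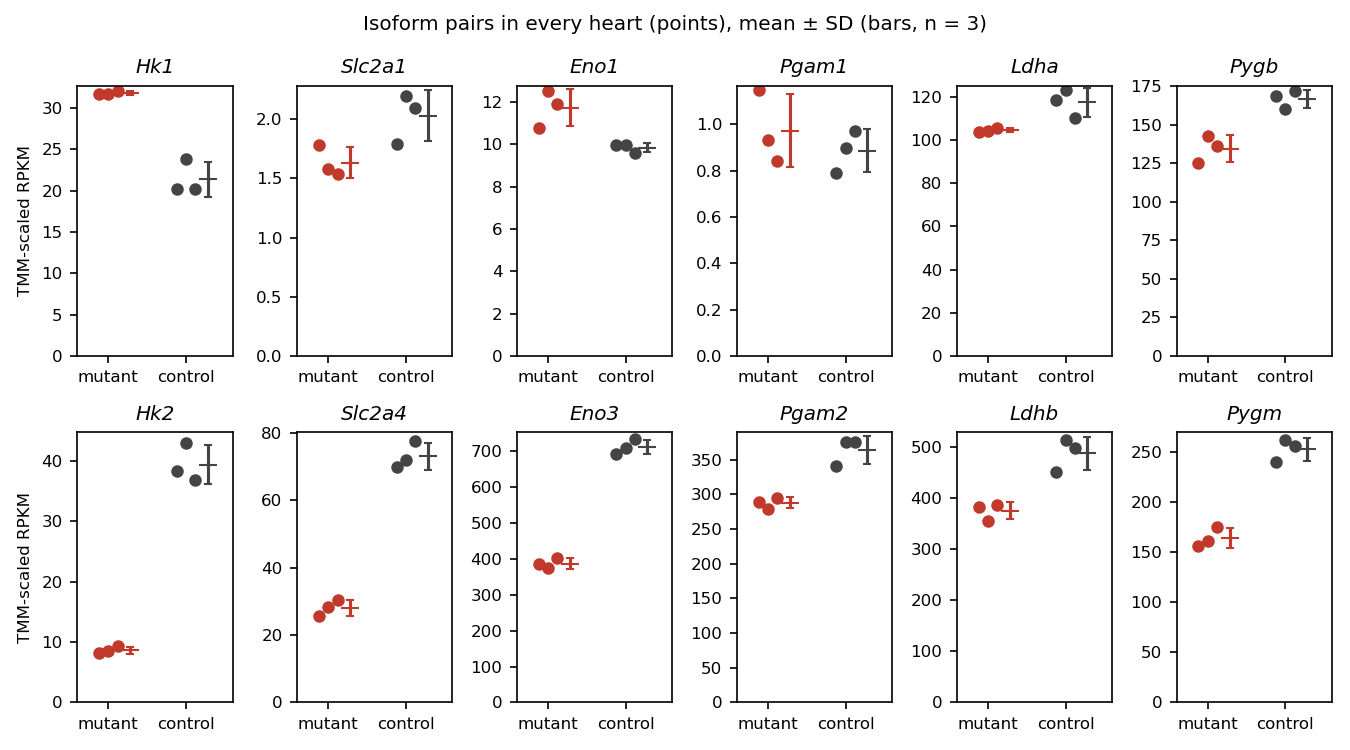
TMM-scaled RPKM of the genes of the isoform pairs in every heart (points) with mean and SD (bars, n = 3), mutant hearts left of control hearts, each panel with its own y axis from 0. Hk1 is higher and Hk2 lower in the mutant hearts, and the muscle forms Eno3, Pgam2 and Slc2a4 are lower.

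At the committed step of glycolysis the transcript of muscle phosphofructokinase was lower, and those of the liver and platelet forms did not pass the test. Pfkm, the muscle form, was at 565.1, 554.6 and 606.5 CPM in mutant hearts, against 806.6, 903.9 and 853.5 CPM in control hearts. All mutant hearts were below all control hearts, with a log2 fold change of -0.57 ± 0.07 (adjusted p = 1.76e-04). Pfkl, the liver form, was at 94.1, 100.8 and 93.4 CPM in mutant hearts and 99.7, 115.5 and 96.6 CPM in control hearts, with overlapping groups (adjusted p = 0.283). Pfkp, the platelet form, was at 145.8, 146.0 and 139.8 CPM in mutant hearts and 122.0, 134.3 and 129.1 CPM in control hearts. Its groups did not overlap, and the log2 fold change of 0.16 ± 0.06 had an adjusted p of 0.0589, which passed 0.05 when only nuclear genes entered the fit. The bifunctional enzymes that make and remove fructose 2,6-bisphosphate, an activator of phosphofructokinase, were both lower. Pfkfb2, the heart form, was at 51.5, 51.5 and 51.1 CPM in mutant hearts and 103.8, 83.2 and 80.4 CPM in control hearts (log2 -0.79 ± 0.09, adjusted p = 1.59e-04). Pfkfb1, a liver and muscle form, was near the low end of detection, with 76, 76 and 78 counts in mutant hearts and 91, 102 and 142 counts in control hearts, or on average 1.48 CPM in mutant hearts and 2.34 CPM in control hearts (log2 -0.66 ± 0.19, adjusted p = 0.0201). The Pfkfb1 call was lost without mutant heart 2 (adjusted p = 0.0579), mutant heart 3 (0.0547) or control heart 3 (0.069). For Gpi1, which interconverts glucose and fructose 6-phosphate, the log2 value was 0.02 (adjusted p = 0.835).

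In the middle of the pathway, transcripts of aldolase A, GAPDH, phosphoglycerate kinase and the muscle mutase were lower, and that of triosephosphate isomerase did not pass the test. Aldoa, the muscle aldolase, was at 1067, 1046 and 990.6 CPM in mutant hearts, against 1437, 1621 and 1509 CPM in control hearts, a log2 fold change of -0.56 ± 0.07 (adjusted p = 2.11e-04). No mutant heart reached a control heart. Aldoc, the brain aldolase, was higher by the largest fold of the 33, but from 48, 42 and 30 counts in mutant hearts and 8, 7 and 4 counts in control hearts. The ratio of the summed counts scaled to library size was 5.87, with an interval from counting error of 3.60 to 10.1 (95%), and the log2 fold change was 2.53 ± 0.36 (adjusted p = 5.03e-04). Aldoc remained under 0.1% of the aldolase transcripts on average, 0.0858% in mutant hearts and 0.0105% in control hearts. For triosephosphate isomerase, Tpi1, the log2 value was 0.01 (adjusted p = 0.947). Pgam2, the muscle phosphoglycerate mutase, was at 244.2, 235.8 and 249.1 CPM in mutant hearts and 287.8, 317.6 and 316.8 CPM in control hearts (log2 -0.34 ± 0.06, adjusted p = 0.00242). Pgam1, the brain form, was at 2.11, 1.71 and 1.55 CPM in mutant hearts and 1.45, 1.65 and 1.79 CPM in control hearts, with overlapping groups (adjusted p = 0.594).

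Gapdh averaged 35.5 CPM in mutant hearts and 49.1 CPM in control hearts (log2 -0.47 ± 0.07, adjusted p = 7.39e-04), and Pgk1 14.9 CPM in mutant hearts and 20.5 CPM in control hearts (log2 -0.46 ± 0.07, adjusted p = 0.00103). The levels of these genes and of Pgam1 are uncertain. In Gapdh 25.1% of the distinct 50-base words of its transcripts also occur in other annotated genes, 223 of them, in Pgk1 53.9% and in Pgam1 36.2%, and the treatment of reads with several matches was not stated. The same share was 26.0% for Eno1, 25.8% for Pkm, 21.0% for Ldhb, 17.3% for Pfkfb2, 15.8% for Gpi1 and 11.1% for Phkg1. It was 0.0% for Slc2a4, Hk2, Aldoc, Pgam2, Eno3, Gyg and Ppp1r3c.

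Enolase showed the same arrangement as hexokinase at lower amplitude. Eno3 (ENSMUSG00000060600, chr11:70657202-70662513, plus strand), the muscle enolase, was at 673.1, 653.0 and 703.4 CPM in mutant hearts, against 1213, 1240 and 1284 CPM in control hearts. The groups were far apart, and Eno3 was 1.84-fold lower (log2 -0.88 ± 0.06, adjusted p = 6.58e-06). Eno1 (ENSMUSG00000063524, chr4:150236721-150248879, plus strand), the ubiquitous enolase, was at 58.3, 67.7 and 64.4 CPM in mutant hearts and 53.9, 53.9 and 51.9 CPM in control hearts. Each mutant heart was above each control heart (log2 0.25 ± 0.07, adjusted p = 0.0176), but the call was lost without mutant heart 2 (adjusted p = 0.0878), mutant heart 3 (0.0627) or control heart 2 (0.0508). Per length Eno3 was by far the more abundant in both groups, so Eno1 made up 2.95% ± 0.266 of the pair in mutant hearts and 1.36% ± 0.0665 in control hearts. The windows of the pair are shown with the same capitals, Eno3 at chr11:70656926-70657225 and the outermost of 3 for Eno1 at chr4:150236458-150236757, both on the plus strand.
Eno3: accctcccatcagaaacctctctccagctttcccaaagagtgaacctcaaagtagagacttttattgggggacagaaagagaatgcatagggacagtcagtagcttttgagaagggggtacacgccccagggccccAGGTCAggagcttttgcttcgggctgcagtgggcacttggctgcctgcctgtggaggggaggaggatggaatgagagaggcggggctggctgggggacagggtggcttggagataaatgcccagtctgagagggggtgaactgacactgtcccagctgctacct
Eno1: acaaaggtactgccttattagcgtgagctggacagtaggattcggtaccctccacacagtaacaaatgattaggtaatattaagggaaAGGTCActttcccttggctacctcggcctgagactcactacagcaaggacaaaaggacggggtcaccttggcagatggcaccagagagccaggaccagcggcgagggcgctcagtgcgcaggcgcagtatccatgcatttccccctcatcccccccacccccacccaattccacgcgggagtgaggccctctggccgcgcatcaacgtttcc
Each of these windows held 1 copy of AGGTCA, and the other 2 windows of Eno1 held neither motif.

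RefSeq promoter windows were matched for 32 of the 33 genes, 49 windows in all. AGGTCA occurred in 9 of these windows (18.4%), against 16.3% of 32851 windows of all genes, and 2 copies of AGGTCA as a direct repeat with 4 bases between, the arrangement best known for thyroid hormone receptors, in 0 of the 49 and in 5 of all windows (0.0152%). ACGTG occurred in 22 windows (44.9%) of 19 genes, among them Hk2, Hk1, Gapdh, Ldha, Aldoa and Pkm, against 19.6% of all windows. The longer CACGTG, which contains ACGTG, occurred in 6 windows (12.2%), against 7.15% of all windows. Both strands were searched, windows of 1 gene can overlap, and these counts describe letters in a short window.

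At the last steps, Pkm, encoding muscle and embryonic pyruvate kinase, was lower, at 348.1, 340.4 and 367.0 CPM in mutant hearts and 501.9, 551.1 and 486.1 CPM in control hearts (log2 -0.54 ± 0.07, adjusted p = 2.33e-04). The counts are per gene and do not separate its M1 and M2 splice forms. Ldhb, the heart subunit of lactate dehydrogenase, was at 606.1, 562.0 and 610.9 CPM in mutant hearts, against 713.4, 812.0 and 787.3 CPM in control hearts (log2 -0.38 ± 0.07, adjusted p = 0.00251). Ldha, the muscle subunit, was at 345.8, 347.2 and 351.2 CPM in mutant hearts and 395.6, 410.3 and 367.0 CPM in control hearts. Both subunits were lower in every mutant heart than in every control heart, but the Ldha log2 fold change of -0.17 ± 0.06 had an adjusted p of 0.061. Ldha was past the threshold only without control heart 3 among the hearts left out in turn. Ldhb was the more abundant per length in both groups.

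Within a heart, the ratio of 2 isoforms per length does not depend on how the library is scaled. It differed between the groups without overlap for all 9 pairs compared. Among single genes, CPM did not overlap for 49.8% of all tested, and ratios of other gene pairs were not computed. With 3 hearts in each group the exact two-sided permutation test cannot go below 0.1, and each pair had that p, 0.1 also after Benjamini-Hochberg adjustment over the 9 pairs, so no pair could be called. The log2 ratio of Hk1 to Hk2 was 1.88 ± 0.085 in mutant hearts and -0.88 ± 0.041 in control hearts (SD, n = 3 each), a 6.77-fold difference and the only one of the 9 in which the more abundant gene changed. The ratio of Eno1 to Eno3 was 2.19-fold higher in mutant hearts, that of Slc2a1 to Slc2a4 2.10-fold, and that of Pfkp to Pfkm 1.66-fold. Smaller differences of the same direction were seen for Pfkl to Pfkm (1.38-fold), Pgam1 to Pgam2 (1.38-fold), Pygb to Pygm (1.24-fold) and Ldha to Ldhb (1.16-fold). The pairs with Pfkm share that gene, and Pgam1 and Eno1 share 36.2% and 26.0% of their words with other genes. The difference of 8.74-fold for Aldoc to Aldoa rests on the few counts of Aldoc, and with 0.1 added to each RPKM its log2 difference was 1.65 in place of 3.13.

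**Figure D4:**
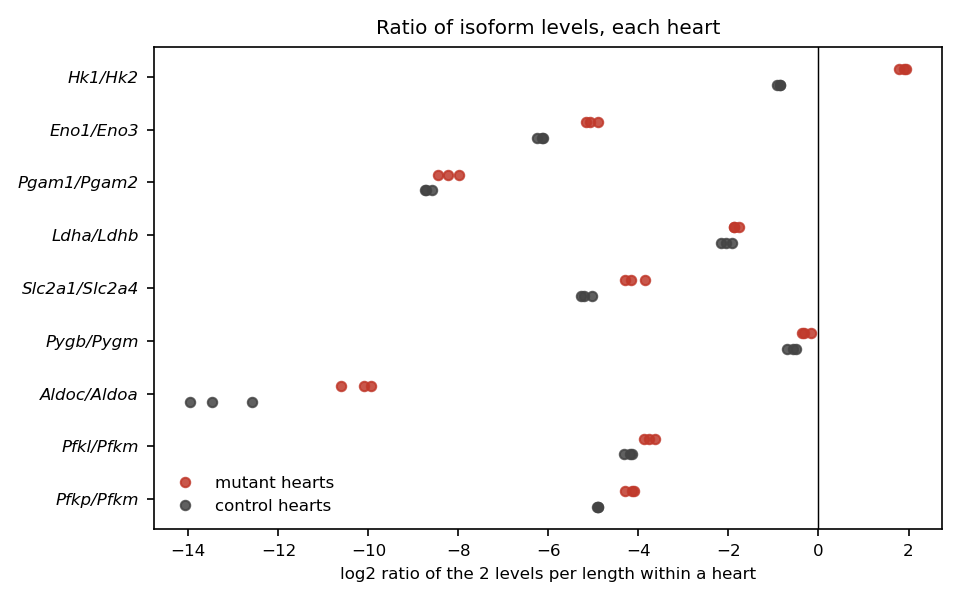
Log2 ratio of the levels per length of each isoform pair in every heart, mutant hearts drawn above control hearts within a pair. In all 9 pairs the 3 mutant hearts lie to the right of the 3 control hearts, and only Hk1 to Hk2 crosses 0.

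Adding the genes of the main list that belong to each step, 14 of 21 steps were lower in all mutant hearts than in all control hearts, 2 were higher and 5 overlapped. For comparison, CPM of the groups did not overlap for 49.8% of all genes tested, in either direction. Isoforms outside the main list, such as the liver phosphorylase Pygl, were left out of these sums. The phosphorylase kinase sum joins Phka1 and Phkg1, which are different subunits and not isoforms. The summed glucose transporters were at 29.7 ± 2.19 in mutant hearts and 75.1 ± 4.11 in control hearts (TMM-scaled RPKM, SD, n = 3 each), a ratio of 0.396. Enolase was at 398.5 ± 14.3 in mutant hearts and 722.1 ± 20.4 in control hearts, a ratio of 0.552. Phosphofructokinase, aldolase and pyruvate kinase had close ratios of 0.699, 0.680 and 0.686. On the deposited RPKM values the branching enzyme, 1 of the 14, had a ratio above 1 (1.03, against 0.849 with TMM), while lactate dehydrogenase had 0.965 (0.793 with TMM) and phosphoglycerate mutase 0.964 (0.792 with TMM). The overlapping steps were phosphoglucose isomerase, triosephosphate isomerase, the monocarboxylate transporters, glycogen synthase and UDP-glucose pyrophosphorylase.

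In the glycogen branch, transcripts of the breakdown genes among the 33 were lower, and that of the protein that primes new glycogen was higher. Pygm (chr19:6384399-6398459, plus strand), the muscle phosphorylase, was at 506.2, 520.9 and 567.3 CPM in mutant hearts, against 775.7, 847.1 and 826.6 CPM in control hearts (log2 -0.62 ± 0.07, adjusted p = 1.07e-04), 1.54-fold lower. Pygb, the brain phosphorylase, was at 603.7, 688.6 and 657.2 CPM in mutant hearts and 814.4, 775.7 and 830.3 CPM in control hearts (log2 -0.31 ± 0.07, adjusted p = 0.00617). The groups did not overlap for either gene, and Pygb made up 45.0% of the pair per length in mutant hearts and 39.8% in control hearts. Phkg1 (chr5:129863421-129898549, minus strand), the muscle catalytic subunit of phosphorylase kinase, was at 4.14, 4.47 and 5.43 CPM in mutant hearts, against 18.6, 20.3 and 20.4 CPM in control hearts. It was 4.22-fold lower (log2 -2.08 ± 0.11, adjusted p = 1.22e-06), the second largest fall of the 33 after Hk2. Of its exons 9.7% lie on the strand opposite to exons of Sumf2, and the library kit does not mark strand, so reads from Phkg1 and Sumf2 are not separable there. Phka1, the muscle regulatory subunit of the same kinase, averaged 42.0 CPM in mutant hearts and 55.8 CPM in control hearts (log2 -0.41 ± 0.06, adjusted p = 6.14e-04).

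Gyg (chr3:20122084-20155317, minus strand), the glycogenin on which a new glycogen particle starts, was at 211.6, 225.7 and 205.3 CPM in mutant hearts and 156.9, 154.3 and 148.3 CPM in control hearts (log2 0.48 ± 0.06, adjusted p = 2.3e-04). Ppp1r3c, which targets protein phosphatase 1 to glycogen and so favours synthesis, was at 154.1, 149.5 and 142.6 CPM in mutant hearts and 121.7, 114.6 and 126.8 CPM in control hearts (log2 0.30 ± 0.06, adjusted p = 0.00484). Each mutant heart exceeded each control heart for both genes. Gys1, the muscle glycogen synthase, did not pass the test, with 81.6 CPM in mutant hearts and 93.9 CPM in control hearts (log2 -0.20 ± 0.07, adjusted p = 0.0501), and passed it without mutant heart 1 (0.0275) or control heart 1 (0.0206). Slc2a1 likewise passed the threshold without mutant heart 1 (0.0355) or control heart 1 (0.0225). Gbe1, the branching enzyme, averaged 43.5 CPM in mutant hearts and 51.2 CPM in control hearts (log2 -0.24 ± 0.06, adjusted p = 0.0158), a call lost without mutant heart 3 (0.0588). For Ugp2, which makes the UDP-glucose used for glycogen, the log2 value was -0.08 (adjusted p = 0.521).

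Other genes of the same pathways were read from the same fit. Of 22 tested genes of glucose transport and glycolysis outside the 33, 11 were lower, 1 was higher (Slc16a7, the MCT2 carrier) and 10 did not pass the test, with a median log2 fold change of -0.25. Over all genes tested, 19.5% were called lower and 18.1% higher. Bsg, encoding basigin, which brings MCT1 and MCT4 to the cell surface, was at 425.6, 421.5 and 430.0 CPM in mutant hearts, against 1313, 1457 and 1328 CPM in control hearts (log2 -1.68 ± 0.07, adjusted p = 2.55e-07). Fbp2, the muscle fructose bisphosphatase, was lower (log2 -0.91, adjusted p = 3.01e-05), as was Tigar, which lowers fructose 2,6-bisphosphate (log2 -0.74, adjusted p = 3.1e-05).

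Of 19 tested glycogen genes outside the 33, 5 were higher, 4 were lower and 10 did not pass the test. These are 26.3% higher and 21.1% lower, against 18.1% and 19.5% of all genes tested. Their median log2 fold change was 0.04. Pygl, the liver phosphorylase, was at 75.3, 82.8 and 71.7 CPM in mutant hearts and 27.6, 30.1 and 28.5 CPM in control hearts, 2.67-fold higher (log2 1.41 ± 0.07, adjusted p = 1.19e-06). It rose while the muscle and brain forms fell. Stbd1, which binds glycogen and tethers it to membranes, was at 6.28, 5.90 and 4.60 CPM in mutant hearts and 0.944, 1.14 and 0.915 CPM in control hearts (log2 2.47 ± 0.17, adjusted p = 4.82e-06). Ppp1r3d, another subunit that targets phosphatase 1 to glycogen, was higher (log2 0.46, adjusted p = 2.6e-04), and Pgm1, a phosphoglucomutase, was lower (log2 -0.53, adjusted p = 1.59e-04). The macrophage and endothelial markers were lower in the same hearts and the fibroblast markers higher, by the values given above.

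**Figure D5:**
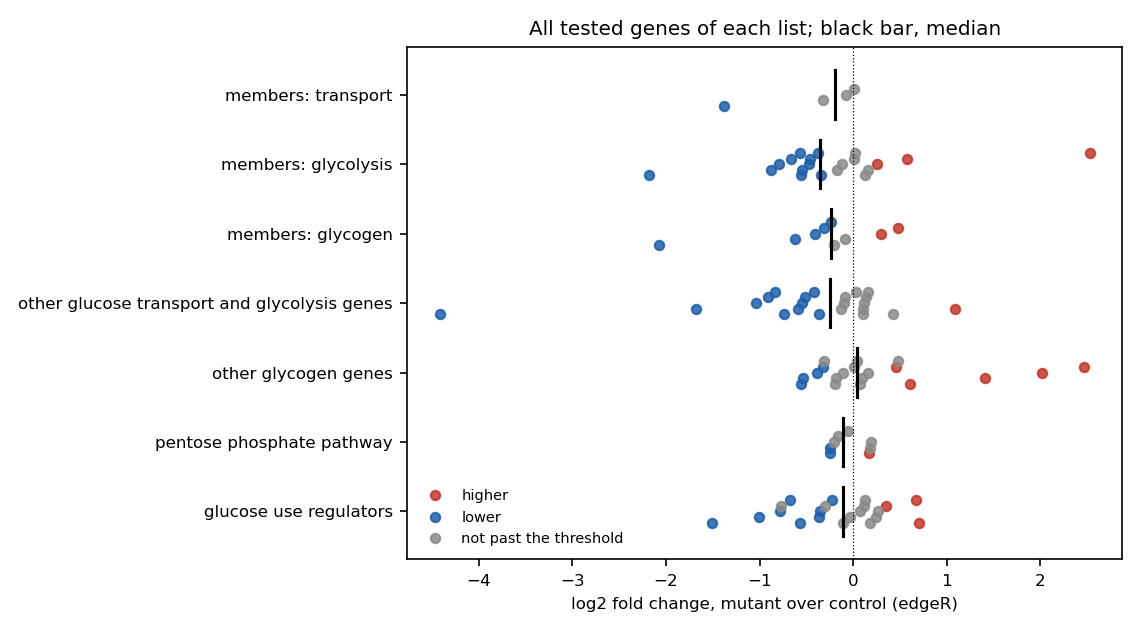
Log2 fold change, mutant over control (edgeR), of all tested genes of each list, with the median of the list marked. The 33 genes, drawn in 3 rows, have medians of -0.195 (transport), -0.36 (glycolysis) and -0.235 (glycogen), the other glucose genes -0.25 and the other glycogen genes 0.04, beside -0.001 over all genes tested.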

How the data were processed

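Gene expression was measured in whole hearts of 6 pups, 3 in each group. For each heart the authors deposited raw counts by Ensembl identifier. The submitters' processing notes name featureCounts 1.5.1, STAR 2.5.2b, cutadapt 1.9 and mm10, with no role or order. Neither the annotation release nor the strand setting nor the treatment of reads with several matches is given in the sources used here. In contrast, the deposited RPKM values of the authors are counts per gene length and library total, with no correction for library composition. The library kit was Illumina TruSeq RNA, per the labels' protocols.

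Counts were fitted over the whole table with edgeR 4.0.16 (R 4.3.3; filterByExpr at defaults, 14877 genes kept and 5244 removed; TMM; quasi-likelihood F test with group as the only term; Benjamini-Hochberg over all genes tested), with calls at an adjusted p of 0.05. All 33 genes passed the filter. CPM is relative to the TMM-scaled library size; TMM-scaled RPKM divides it by the gene length implied by the deposited tables. SE values are approximate, the log2 fold change over the square root of F. The script was tested on simulated counts. Isoform ratios were compared by exact permutation. Intervals on counts cover counting error only. Identifiers were matched to GENCODE M21 symbols (20081 of 20121), and promoter windows come from RefSeq on GRCm38.p6. Alternatives were RLE scaling, DESeq2 1.42.0, no filter, nuclear genes only, limma 3.58.1 on log2(RPKM + 0.1) and log2(RPKM + 1), a replicate block, and leaving out each heart.

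The genes and lists were chosen with earlier results of these data known. Of the 33 genes, values in every heart are given for the isoform pairs, for others called with at least 1.5-fold, and for Pkm, Gyg and Ppp1r3c; from each other list, up to 4 called genes with the smallest adjusted p were named, except 1 that is not reported here, and Slc16a7 and Txnip, which fall outside this rule, were picked with their values in view. The pups are separate animals. Deviations from the group means correlated at -0.05 to 0.155 between same-numbered hearts and at -0.175 to 0.091 between differently numbered hearts. These values are low, and the numbers were not taken as pairs.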

Additional observations from a re-analysis of the deposited data

How the results depend on the processing

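RLE scaling, DESeq2 and the fit with no filter on low counts left all 33 genes on the same side of the threshold, and nuclear genes only moved Pfkp past it. On log2(RPKM + 0.1) and log2(RPKM + 1), limma called 7391 and 7349 genes higher and 1221 and 1215 lower. Of the 33 genes, 9 were then higher and 10 lower with either. For the other glucose genes it called 4 higher and 6 lower with either, for the other glycogen genes 12 and 11 higher and 2 lower, for the pentose phosphate genes 4 higher and 0 lower, and for the regulators 9 higher and 5 lower. Among the named genes called lower, the log2 fold change turned positive on these scales for Gbe1 (0.048 and 0.044), Taldo1 (0.035 and 0.034) and Pgls (0.042 and 0.038); the median of all genes shifted by 0.259 and 0.168 there. Among the uncalled of the 33 genes, Pfkl (up to 0.173), Ldha (0.117), Gys1 (0.082), Ugp2 (0.207) and Slc16a1 (0.196) also changed sign there, each without a call. The pentose phosphate counts also moved elsewhere: 0 higher with DESeq2 and with no filter, and 1 lower with RLE, with no filter and with nuclear genes only.

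Hearts left out in turn gave 4 to 5 higher and 15 to 20 lower of the 33, 1 to 2 higher and 8 to 10 lower of the other glucose genes, 5 higher and 3 to 5 lower of the other glycogen genes, 0 higher and 0 to 3 lower of the pentose phosphate genes, and 2 to 5 higher and 7 to 9 lower of the regulators. With a replicate block, 6 of the 33 were higher and 17 lower, the pentose phosphate genes gave 2 higher and 1 lower, and 5 regulators were higher. Over all genes the block gave 3090 higher and 3229 lower, against 2688 and 2898 without it. Same-numbered hearts correlated at -0.05 to 0.155 in their deviations, and the block is given here alone. The difference of every isoform pair kept its direction under every alternative, with the Hk1 to Hk2 log2 difference between 2.73 and 2.81 across hearts left out. The cause of the moves with RPKM was not tested. Depth limits Aldoc, Pfkfb1 and Pgam1, which have few counts.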

Other observations

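Regulators of glucose use were also read from the same fit. Of 21 genes, 8 were lower, 3 were higher (Tbc1d1, Txnip and Myc) and 10 did not pass the edgeR test. Lower calls were 38.1% and higher calls 14.3%, against 19.5% and 18.1% of all genes tested. Their median log2 fold change was -0.11. Mlxipl, encoding ChREBP, a transcription factor activated by glucose metabolites, was at 8.60, 11.5 and 11.8 CPM in mutant hearts, against 26.0, 30.3 and 34.6 CPM in control hearts (log2 -1.51 ± 0.14, adjusted p = 3.06e-05). Sort1, encoding sortilin, which takes part in forming GLUT4 vesicles, was at 34.0, 36.3 and 38.2 CPM in mutant hearts and 72.7, 68.6 and 76.2 CPM in control hearts (log2 -1.004 ± 0.07, adjusted p = 5.95e-06). No mutant heart reached a control heart for either gene. Akt2, the kinase that carries the insulin signal to GLUT4 (log2 -0.68, adjusted p = 3.63e-05), and Epas1, encoding HIF-2 alpha (log2 -0.78, adjusted p = 1.48e-05), were lower too. Epas1 is strongly expressed in endothelium, whose markers were lower for 6 of 8 genes, and their part in its change was not tested. Txnip, an inhibitor of glucose uptake, averaged 1358 CPM in mutant hearts and 850.3 CPM in control hearts (log2 0.68 ± 0.10, adjusted p = 8.15e-04).

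The pentose phosphate pathway, which branches from glucose 6-phosphate, gave log2 fold changes between -0.25 and 0.20. Of 8 genes, Pgd was higher (log2 0.17, adjusted p = 0.0477), and Pgls (log2 -0.25, adjusted p = 0.0463) and Taldo1 (log2 -0.25, adjusted p = 0.0117) were lower, while 5 did not pass the test. The share called, 37.5%, was the same as the 37.5% over all genes tested. Among the 6 fits that each left out a heart, the Pgd call was lost in 6, the Pgls call in 5 and the Taldo1 call in 2.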
